A study of Mus musculus with 8 samples.

Results

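The genes described here are 10 transcripts of ependymal cells and of the motile cilium, out of 49585 genes in the deposited tables: Foxj1, Ccdc153, Tmem212, Rarres2, Dynlrb2, Tekt1, Tekt4, Rsph1, Ccdc39 and Hydin. They were chosen by name, as a measure of tissue from around the central canal, with no threshold on their values. Levels were measured by RNA-seq of polyadenylated RNA from the dorsal horn of lumbar segments 4 to 6, the part of the spinal cord that receives touch and pain input. Of 8 libraries, 4 came from miR-96 knock-out (KO) mice and 4 from wild type (WT) mice. Both genotypes were adult C57BL/6J, and the labels give no treatment, sex or exact age. The labels do not say how the microRNA gene was removed, whether its neighbours in the same cluster were left intact, or whether each library came from its own animal. The p-values below therefore measure the spread between libraries, part of which may be technical. Mature miR-96 is too short for a polyA library, so the knock-out itself could not be checked in these data.

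Ependymal cells line the fluid-filled central canal of the spinal cord and the ventricles of the brain, and their motile cilia move cerebrospinal fluid. A motile cilium is built on a ring of doublet microtubules around a central pair, with dynein motors, radial spokes and regulatory complexes attached at fixed repeats. Its genes are switched on together by the forkhead factor Foxj1 and by factors of the RFX family, which bind the X-box motif. The canal lies outside the dorsal horn proper, so a dissected dorsal horn holds canal tissue only as far as the cut reaches it. In bulk RNA, fewer ependymal cells and less RNA per cell cannot be told apart.

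Promoters of some of the 10 genes hold letters that match these motifs, and their windows are shown so that the matches can be read. RefSeq promoter sequence (GRCm38.p6, 250 bases before to 50 after each start) matched 7 of the 10 genes: Ccdc153, Tmem212, Dynlrb2, Tekt1, Tekt4, Ccdc39 and Hydin. An inverted X-box pair, searched as GTTGC and GCAAC with 3 or 4 bases between them, which reads alike on both strands, was found in 3 of the 7. In the following windows, printed on the strand of the gene and cut at its start, the capitals mark the pair.
Dynlrb2, chr8:116504939-116505001, plus strand: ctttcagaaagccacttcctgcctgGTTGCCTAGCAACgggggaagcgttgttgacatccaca
Tekt4, chr17:25471529-25471589, plus strand: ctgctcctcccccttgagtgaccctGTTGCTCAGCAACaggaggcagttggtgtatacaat
Hydin, chr8:110266931-110266976, plus strand: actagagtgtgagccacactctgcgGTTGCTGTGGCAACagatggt
The pair ended 39 bases before the start of Dynlrb2, 24 before that of Tekt4 and 8 before that of Hydin. These starts are those of RefSeq. In the deposited loci Dynlrb2 begins at 116504974, within the capitals printed above, so by those loci the pair spans the start. Of 27025 genes with a promoter in the table, 0.444% held the pair, as did 13.7% of the 51 genes of the axoneme lists described later. The single half-site, searched as GTTGCC or GGCAAC and overlapping the pair in Dynlrb2 and Hydin, was found in 5 of the 7 promoters against 14.1% of all genes. In Tekt4 it lay after the start. RefSeq gave 2 promoters for Tekt1, and the window printed here lies within the deposited locus of the gene, which runs to 72362442. Outside the pairs, Ccdc153 and Tekt1 held the half-site upstream of the RefSeq start, with the capitals marking it. The Tekt1 window holds it again further on in lower case.
Ccdc153, chr9:44240500-44240555, plus strand: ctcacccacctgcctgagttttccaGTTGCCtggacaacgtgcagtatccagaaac
Tekt1, chr11:72361887-72361942, minus strand: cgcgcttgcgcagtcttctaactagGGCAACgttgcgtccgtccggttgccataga
A forkhead core, searched as TGTTTA or TAAACA, was found in the promoter of 1 of the 7 genes, Tmem212, against 15.1% of all genes and 23.5% of the axoneme genes. Its capitals mark the core, which begins 51 bases before the start.
Tmem212, chr3:27896389-27896444, minus strand: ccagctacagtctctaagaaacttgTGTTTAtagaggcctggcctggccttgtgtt
A match is a description of these letters and was not tested as a binding site.

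The mature microRNA removed in the knock-out is shown with its seed, bases 2 to 8, in capitals, from RefSeq (chr6:30169506-30169528, minus strand).
miR-96-5p: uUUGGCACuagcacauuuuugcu
Matches were searched in the longest annotated 3′ untranslated region, in 2 forms. GTGCCAA pairs with bases 2 to 8, and TGCCAAA stops short of base 8 and ends in an added A. Either form was found in 0 of the 9 genes whose region had at least 50 nt. Among 13081 expressed genes, 22.2% held a match of either form. The regions of the 9 genes were short, with a median of 196 nt against 1417 nt over the expressed genes.

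Foxj1, the forkhead factor at the head of the motile cilia programme, was the most evenly expressed of the 10. It stood at 16.2, 14.3, 12.6 and 15.6 FPKM (fragments per kilobase of transcript, scaled to the mapped fragments of the library) in KO libraries 1 to 4, against 14.1, 15.4, 16.3 and 14.3 FPKM in WT libraries 1 to 4. The highest library was 1.29 times the lowest, and the genotypes overlapped. Mean levels were 14.7 ± 1.57 FPKM in KO and 15.0 ± 1.02 FPKM in WT (SD, n = 4 each). An estimated 1177 to 1665 fragments per library lay behind these values. The gene (chromosome 11, 116330704 to 116335399, minus strand) was thus expressed in every library.

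Ccdc153, a coiled-coil protein used as a marker of ependymal cells, varied far more. Its FPKM were 6.82, 7.52, 1.47 and 9.58 in KO libraries 1 to 4, against 0.134, 8.32, 8.31 and 4.55 in WT libraries 1 to 4. Between the highest and the lowest of the 8 libraries the level differed 71.2-fold. That fold rests on the 0.134 FPKM of WT library 1, a value near 0 whose fragments were not estimated. Library 3 was the low one in KO and library 1 in WT. Tmem212, a small membrane protein and another ependymal marker, was lowest in the same libraries, with 1.04, 0.997, 0.205 and 1.43 FPKM in KO. In WT it was listed at 0 in library 1 and stood at 1.48, 1.67 and 1.40 FPKM in libraries 2 to 4. About 5 fragments lay behind the value of KO library 3, against 18 to 24 in the other KO libraries, 28 to 34 in WT libraries 2 to 4 and 0 in WT library 1. At the estimated depth of WT library 1, a count of 0 allows up to 0.169 FPKM (3 fragments, counting error only).

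Rarres2 encodes chemerin, a secreted chemoattractant that ependymal cells express and that liver also makes. It did not share the low value of KO library 3. Its FPKM were 4.01, 2.94, 4.75 and 6.30 in KO libraries 1 to 4 and 2.79, 5.58, 5.36 and 4.37 in WT libraries 1 to 4. Cmklr1, its signalling receptor, ran between 2.55 and 5.31 FPKM in KO and between 1.81 and 3.86 FPKM in WT.

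**Figure D1:**
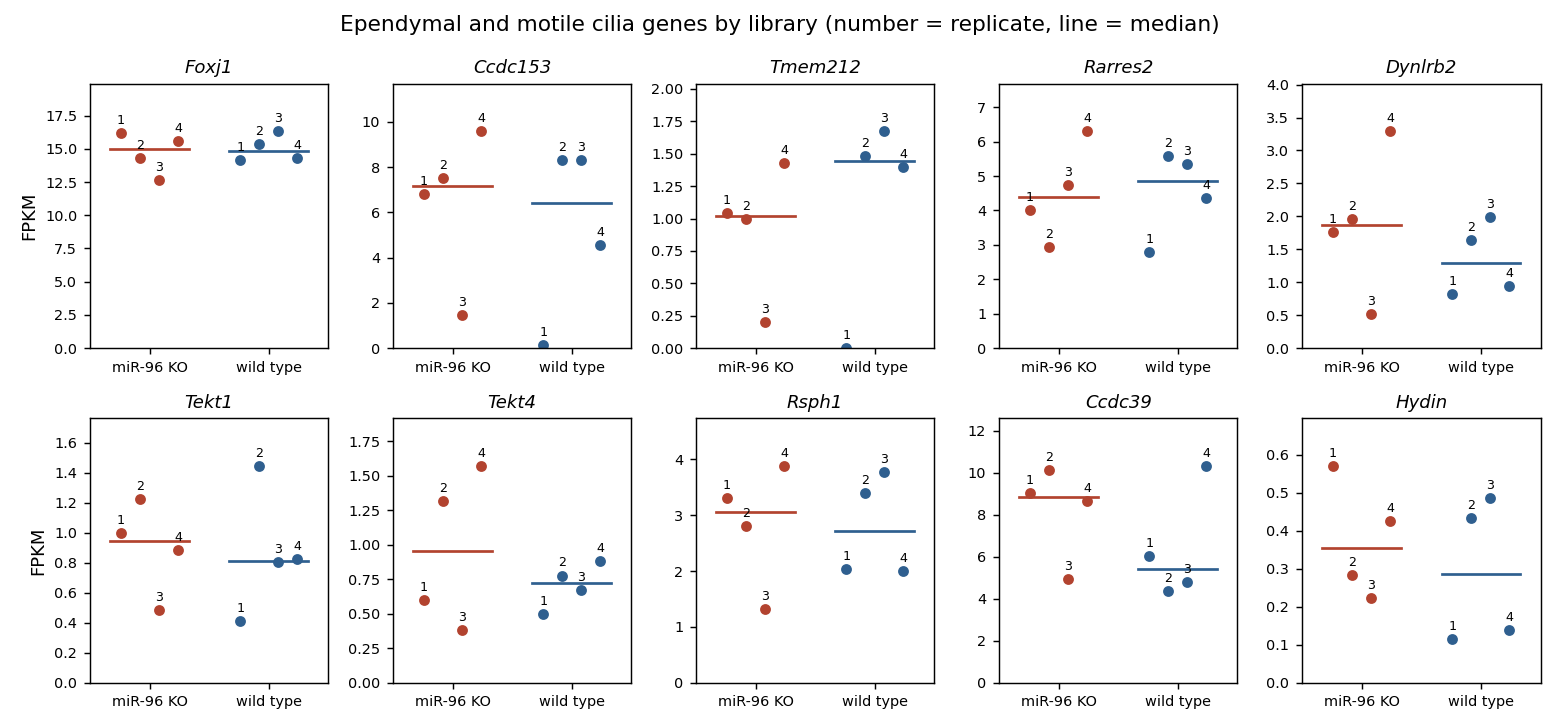
FPKM of the 10 genes in each library (y axis, starting at 0), miR-96 knock-out at left and wild type at right, with the replicate number above each point and a line at the median of 4. Knock-out replicate 3 and wild type replicate 1 lie at or near the bottom in most panels, Foxj1 varies least, and the genotypes overlap in all 10.

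Among the structural genes, Dynlrb2, a roadblock light chain of dynein, had 1.77, 1.97, 0.517 and 3.29 FPKM in KO and 0.825, 1.64, 1.99 and 0.936 FPKM in WT. KO library 3 was again the lowest and KO library 4 the highest of all 8, and WT libraries 1 and 4 were both low. Dynlrb1, the paralogue used by cytoplasmic dynein in most cells, was far more abundant, with 209 to 244 FPKM in KO and 206 to 371 FPKM in WT, and within each genotype it was highest in the libraries where Dynlrb2 was lowest. Its log2 fold change was -0.27 (limma adjusted p = 0.620).

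Rsph1, a protein of the radial spoke head, had 3.31, 2.80, 1.33 and 3.88 FPKM in KO and 2.03, 3.41, 3.77 and 2.00 FPKM in WT. The WT libraries thus fell into a low pair (1 and 4) and a high pair (2 and 3), and KO library 3 lay below both. Hydin, a very long protein of the central pair apparatus, had the same pair of low WT libraries at a low level, with 0.570, 0.283, 0.223 and 0.424 FPKM in KO and 0.115, 0.434, 0.485 and 0.138 FPKM in WT.

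The tektins form filaments inside the doublet microtubules, and both were under a mean of 1 FPKM. Tekt1 had 1.00, 1.23, 0.484 and 0.885 FPKM in KO and 0.412, 1.45, 0.808 and 0.823 FPKM in WT. Tekt4 had 0.600, 1.32, 0.384 and 1.57 FPKM in KO and 0.501, 0.778, 0.675 and 0.884 FPKM in WT. For both tektins KO library 3 and WT library 1 were the lowest of the 8.

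Ccdc39, which with Ccdc40 forms the ruler that sets the repeat along the axoneme, had an order of its own. It stood at 9.06, 10.1, 4.95 and 8.67 FPKM in KO and at 6.05, 4.36, 4.80 and 10.3 FPKM in WT. KO libraries 1, 2 and 4 and WT library 4 formed a high set, and the other 4 libraries a low one.

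Ccdc39 (chromosome 3, 33812362 to 33844310, minus strand) shares 1256 of its 7443 annotated exonic bases, 16.9%, with Ttc14 on the opposite strand (33799832 to 33814860). No source used here says whether counting used strand, and without it reads of the shared part cannot be told apart. Ttc14 had 53.8, 52.5, 25.7 and 50.3 FPKM in KO and 24.0, 23.6, 25.6 and 46.9 FPKM in WT, so its high and low libraries were those of Ccdc39. Its log2 fold change was 0.59 ± 0.27 (SE, limma adjusted p = 0.620). The same 4 libraries were also the highest in Cfap69, a central pair protein, at 14.5 to 21.6 FPKM in KO and 10.3 to 20.8 FPKM in WT, and in Rfx3, an X-box factor, at 5.20 to 7.40 FPKM in KO and 2.78 to 6.17 FPKM in WT. This order, noticed after the values were seen, was found in 11.4% of all genes tested and in 1 of the 7 cilia genes tested. Ccdc40, the partner of Ccdc39, had 2.10 to 3.20 FPKM in KO and 1.81 to 2.64 FPKM in WT, again with those 4 libraries highest. In Ccdc40 no gap parted them from the rest, as KO library 2 was at 2.108 FPKM and KO library 3 at 2.100 FPKM. Of the 35 tested genes of the axoneme lists, 3 had this order, 8.57%.

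Rarres2 (chromosome 6, 48569696 to 48572789, minus strand) shares 892 of 2656 exonic bases, 33.6%, with Lrrc61 on the opposite strand. Lrrc61 had 12.3, 16.8, 15.8 and 13.4 FPKM in KO and 9.07, 19.8, 14.5 and 14.1 FPKM in WT. In WT both genes were lowest in library 1 and highest in library 2, while in KO the library highest in Lrrc61 was the lowest in Rarres2. The antisense neighbour of Hydin, Gm26832, was listed at 0 in every library.

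**Figure D2:**
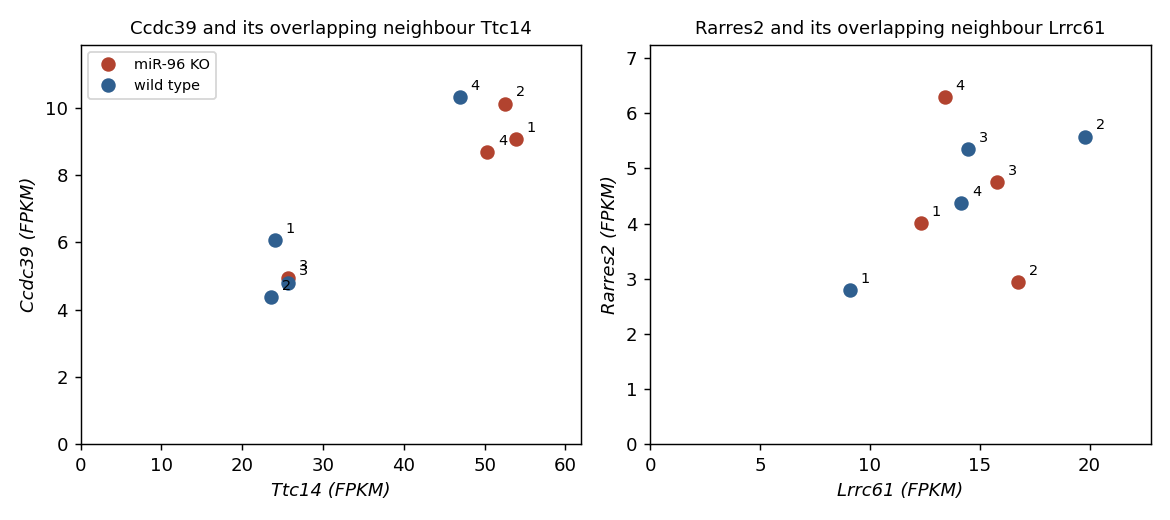
FPKM of Ccdc39 against Ttc14 (left) and of Rarres2 against Lrrc61 (right), the genes whose exons they overlap on the opposite strand; each numbered point is 1 library, knock-out or wild type. In the left panel knock-out replicates 1, 2 and 4 and wild type replicate 4 lie apart from the other 4 libraries on both axes, and in the right panel no such split is seen.

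Between genotypes, none of the 7 genes with a mean of at least 1 FPKM passed the threshold of an adjusted p under 0.05 (limma on log2(FPKM + 1), Benjamini-Hochberg over 15061 genes). The share of all genes called was 0%. At an unadjusted p under 0.05, 0 of the 7 were called against 831 of all genes, 5.52%, and 0 of the 7 had genotypes that did not overlap against 3.03% of all genes. By sign, 3 were higher and 4 lower in KO, and the median log2 fold change was -0.01 against 0.01 over all genes tested.

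The interval of each difference shows what these libraries could resolve. For Foxj1 the log2 fold change was -0.03 with a 95% interval of -0.26 to 0.19 (adjusted p = 0.898). That interval was the narrowest of the 7. Ccdc153 had the widest, -1.10 to 1.94 around 0.42 (adjusted p = 0.803), and its value was -0.28 without WT library 1 and 0.88 without KO library 3. Tmem212 had -0.10 with -0.85 to 0.64 (adjusted p = 0.908), and its value was -0.44 without WT library 1 and 0.10 without KO library 3.

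Dynlrb2 had a log2 fold change of 0.23 with an interval of -0.43 to 0.90 (adjusted p = 0.746), and Ccdc39 had 0.34 with -0.24 to 0.92 (adjusted p = 0.627). Leaving out 1 library at a time, Dynlrb2 lay between 0.01 without KO library 4 and 0.51 without KO library 3, and Ccdc39 between 0.21 without WT library 2 and 0.57 without WT library 4. Ccdc39 passed the threshold under 1 alternative, estimated library weights, at 0.71 (adjusted p = 0.0423), in a fit that gave WT library 3 a weight of 5.09 and WT library 1 a weight of 0.153. That fit called 10.8% of all genes, so 1 of the 7 is near the share of all genes. Rarres2 and Rsph1 were each at -0.01, with intervals of -0.51 to 0.49 and -0.57 to 0.55. In the fit without a filter on low values, Tekt1 had 0.03, Tekt4 0.16 and Hydin 0.09, with adjusted p between 0.786 and 0.965. These p-values do not show that the genotypes had equal levels.

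**Figure D3:**
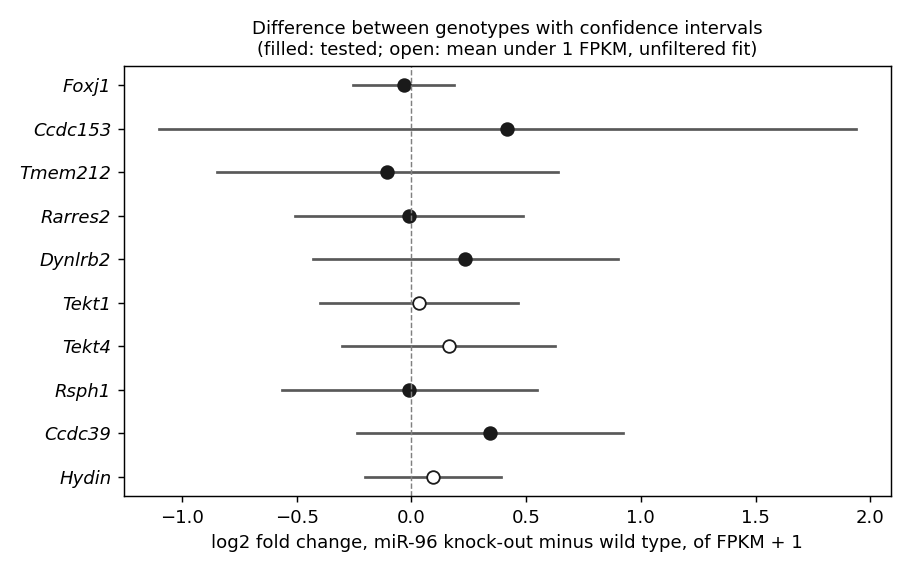
Log2 fold change of FPKM + 1, knock-out minus wild type (x axis), for each of the 10 genes (y axis), with 95% intervals from limma; open points are the 3 genes under a mean of 1 FPKM, from the fit without a filter. Every interval holds 0, and Ccdc153 has the widest.

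Libraries of the same genotype differed in most of these genes. The summed level of the 10 genes was 44.3, 43.5, 26.9 and 51.7 FPKM in KO libraries 1 to 4, against 27.0, 42.8, 44.2 and 39.7 FPKM in WT libraries 1 to 4. KO library 3 and WT library 1 thus had nearly the same low sum. KO library 3 was the lowest KO library in 9 of the 10 genes, and WT library 1 the lowest WT library in 8. Both held together in 7 of the 10 genes, and in 4 of the 7 tested genes against 11.0% of all genes tested. The 2 libraries were the lowest of all 8 in 6 of the 10 genes, and in 4 of the 7 tested against 3.01% of all genes tested. This pattern was noticed after the values were seen. By the estimated depth, 43100000 fragments in KO library 3 and 34350000 in WT library 1, the libraries stood at the top and in the lower part of the range of 32000000 to 43100000. The part of depth in the pattern was not tested.

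With both libraries left out, an alternative chosen after seeing the data, 0 of the 7 genes were called. Log2 fold changes were then 0.00 for Foxj1, 0.18 for Ccdc153, -0.23 for Tmem212, -0.21 for Rarres2, 0.40 for Dynlrb2, 0.11 for Rsph1 and 0.54 for Ccdc39, the lowest adjusted p being 0.486.

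The rest of the cilium was read from lists of other axonemal genes. Of 71 listed, 68 had a row in the tables and 35 were tested; Dnai1, Dnai2 and Lrrc48 are not analysed here, and Dyx1c1 was listed at 0 in every library. None of the 35 was called in either direction, 24 were higher and 11 lower in KO, and the median log2 fold change was 0.08. The lowest adjusted p was 0.620. KO library 3 and WT library 1 were each the lowest of their genotype in 22 of the 68, and the lowest of all 8 in 17. Over all genes tested the shares were 11.0% and 3.01%. Only 35 of the 68 were tested, so these shares are not like for like.

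Of 18 axonemal dynein chains in the tables, 5 were tested, and those 5 were higher in KO by sign, with a median log2 fold change of 0.15 and 0 called. In the fit without a filter 15 of the 18 were higher and 3 lower. Over all genes tested, 53.1% were higher in KO, the share against which the sign counts of tested genes in these lists are read. It is not a like share for the 15 of 18, because the fit without a filter took in genes under a mean of 1 FPKM. Dnal1, a light chain, had 38.0 to 40.0 FPKM in KO and 22.6 to 39.6 FPKM in WT, with WT library 1 as the low one. Wdr78, an intermediate chain, had 2.89 to 4.45 FPKM in KO and 1.71 to 3.61 FPKM in WT. Dnah7b, a heavy chain, had 1.86 to 3.76 FPKM in KO and 2.08 to 3.64 FPKM in WT. The docking and assembly factors had 5 higher and 1 lower of 6, with 0 called. Spag1, Ccdc114 and Ccdc151 led that list, and their log2 fold changes were 0.04, 0.20 and 0.04.

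Other radial spoke genes had 2 higher and 3 lower of 5, with 0 called. Rsph9, a spoke head protein, had 7.03 to 10.3 FPKM in KO and 7.49 to 10.5 FPKM in WT, and did not share the low value of WT library 1, where it was highest. Nme5 had a log2 fold change of -0.06 and Rsph10b of 0.11. Central pair genes had 3 higher and 1 lower of 4, and 2 of them, Cfap69 at 0.48 and Cfap46 at 0.41, had unadjusted p under 0.05 (0.042 and 0.035) with adjusted p = 0.620. Spag6l, also of the central pair, had -0.06.

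The ruler and nexin-dynein regulatory complex, the link that coordinates neighbouring dyneins, had 6 higher and 1 lower of 7, with 0 called. Its most abundant members, Gas8, Drc1 and Ccdc65, had log2 fold changes of 0.12, 0.23 and -0.002. Tektins and other proteins of the doublet lumen had 3 higher and 5 lower of 8, with 0 called. Tekt5 and Cfap126 were among the most abundant, and both had a log2 fold change of -0.24. Tekt5 was highest in WT library 1, at 25.1 FPKM, and so did not share its low values.

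Regulators upstream of cilia formation had 2 higher and 2 lower of the 4 tested among 12 listed, and 0 were called. E2f4 and E2f5, which take part in making the many basal bodies of a multiciliated cell, had log2 fold changes of -0.07 and -0.10. Rfx3 had 0.49 ± 0.19 (SE) with an unadjusted p of 0.029 and an adjusted p of 0.620. Other ependymal and cilia markers had 6 higher and 8 lower of 14 tested, with 0 called. Tppp3, Cd24a and Morn2 led the list, at 166 to 189, 53.6 to 88.8 and 8.48 to 9.57 FPKM in KO and at 147 to 252, 47.9 to 87.9 and 7.44 to 14.6 FPKM in WT. Among the 23 genes of that list, KO library 3 and WT library 1 were each the lowest of their genotype in 10. Only 14 of the 23 were tested, so the 11.0% of all genes tested is not a like share. Other genes went the other way, and Tppp3 and Morn2 were highest of the 8 libraries in WT library 1, at 252 and 14.6 FPKM. The list summed to 275 FPKM in KO library 3, within the KO range of 267 to 312 FPKM. In WT library 1 it summed to 361 FPKM, the highest of the 8. Most of these sums came from Tppp3 and Cd24a, at 185 and 56.1 FPKM in KO library 3 and at 252 and 63.8 FPKM in WT library 1. The sums therefore say little about the other genes of the list.

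Markers of neighbouring cells differed between libraries as well. The 9 motor neuron and ventral horn markers summed to 126, 69.4, 44.2 and 77.9 FPKM in KO and to 45.9, 110, 95.0 and 41.2 FPKM in WT, with 8 tested, 7 higher, 1 lower and 0 called. KO library 3 and WT libraries 1 and 4 were the low ones, which are also the low libraries of Rsph1, Hydin and Dynlrb2. The other cilia genes did not all share the low value of WT library 4. It was the highest WT library in Tekt4 (0.884 FPKM) and in Ccdc39 (10.3 FPKM). The sum of the 10 cilia genes was 39.7 FPKM there, against 27.0, 42.8 and 44.2 FPKM in WT libraries 1 to 3. Prph, an intermediate filament of peripheral and motor axons, had 8.89 to 33.3 FPKM in KO and 6.02 to 31.7 FPKM in WT. Slc18a3, the vesicular acetylcholine transporter, had 3.45 to 19.4 FPKM in KO and 3.04 to 15.0 FPKM in WT, and Ret 18.3 to 23.3 FPKM in KO and 10.7 to 22.9 FPKM in WT. Their part in the spread of the cilia genes was not tested.

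Cerebrospinal fluid-contacting neurons sit in the wall of the central canal. Their 5 markers summed to 10.5, 8.75, 6.47 and 11.1 FPKM in KO and to 9.35, 7.90, 10.2 and 7.88 FPKM in WT, with 2 tested, 1 higher, 1 lower and 0 called. The channel subunit Pkd2l1, their defining marker, had 4.69, 3.20, 2.30 and 4.98 FPKM in KO and 4.83, 3.40, 4.47 and 2.59 FPKM in WT. It was thus low in KO library 3 and highest of the WT libraries in WT library 1, where the ependymal markers Ccdc153 and Tmem212 were at their lowest. Its partner Pkd1l2 had 0.825, 0.677, 0.039 and 0.832 FPKM in KO and 0.056, 0.394, 0.662 and 0.413 FPKM in WT, low in both libraries. Gata2 ran between 3.94 and 4.37 FPKM in KO and between 3.74 and 4.21 FPKM in WT.

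Ciliated choroid plexus, another source of Foxj1 and of the axonemal genes, had low marker levels. Its 8 markers summed to 3.87 to 5.73 FPKM in KO and 3.61 to 5.21 FPKM in WT, 0 were called, and the defining factor Otx2 was listed at 0 in every library. Kl, Clic6 and Slc4a5 led the list, none of them above 1.96 FPKM in any library.

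Astrocyte markers (9 of 9 tested, 6 higher, 3 lower, 0 called) summed to 3277 to 3624 FPKM in KO and 3292 to 3722 FPKM in WT, and the most abundant, Aldoc, Slc1a2 and Gfap, had log2 fold changes of -0.18, 0.23 and -0.11. Of the dorsal horn neuron markers, 14 of 14 were tested, with 2 higher, 12 lower and 0 called. They summed to 766, 874, 1060 and 864 FPKM in KO libraries 1 to 4. In WT libraries 1 to 4 the sums were 1274, 987, 911 and 954 FPKM. The labelled tissue was thus present in every library. KO library 3 and WT library 1, low in the cilia genes, had the highest dorsal horn sum of their genotype. Any link between these sums was not tested. The neuropeptide genes Sst, Penk and Cck led the dorsal horn list, at -0.28, -0.25 and -0.25. Meningeal fibroblast markers (10 of 11 tested, 10 higher, 0 called) summed to 108 to 265 FPKM in KO and 108 to 162 FPKM in WT, led by Igf2, Dcn and Col1a2 at 0.21, 0.39 and 0.16. In KO library 3 and WT library 1 that sum was 192 and 140 FPKM, within the range of the other libraries.

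Genes for plasma proteins made in liver, a list kept because Rarres2 is also expressed there, summed to 41.4, 57.1, 79.4 and 74.7 FPKM in KO and to 17.7, 19.3, 4.67 and 3.76 FPKM in WT. All 11 tested were higher in KO with unadjusted p under 0.05, and 0 were called (lowest adjusted p = 0.159). Alb, Apoa2 and Apoa1 led the list, at log2 fold changes of 3.23, 1.16 and 1.52. Rarres2 did not order its libraries that way: its WT libraries 2 and 3 stood above 3 of the 4 KO libraries.

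**Figure D4:**
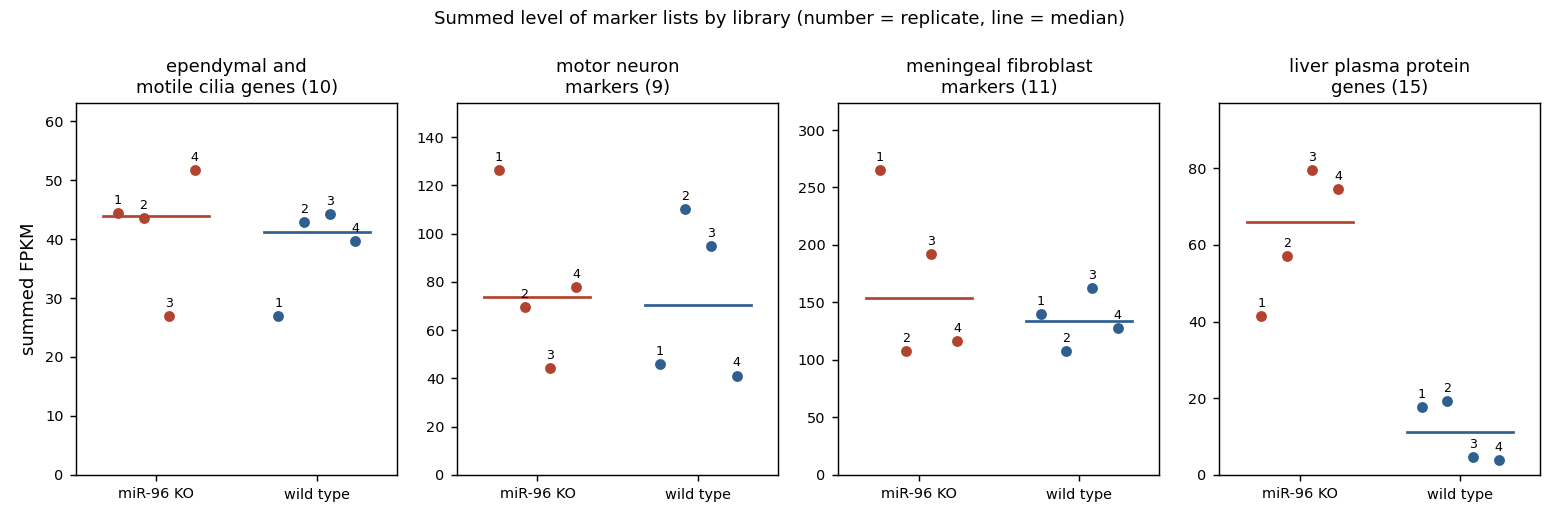
Summed FPKM of marker lists in each library (y axis, starting at 0 in each panel), knock-out at left and wild type at right, with replicate numbers and a line at the median of 4. Knock-out replicate 3 and wild type replicate 1 are low for the 10 cilia genes and, with wild type replicate 4, for the motor neuron markers; only the liver list has genotypes that do not overlap.

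By likeness to the mean z-score of the 7 tested genes, the 10 named genes nearest in pattern had Pearson r between 0.93 and 0.96 over the 8 libraries. In order they were Kif9, a kinesin of motile cilia, Iqcg, Lrrc23, Hlcs, Rhbdl2, Ak7, Map3k20, Mir6998, Wdr66 and Drc7. Mir6998 is a microRNA gene, listed at 0 FPKM in KO library 3 and WT library 1. Mature microRNA is too short for a polyA library, so these values do not measure it. Iqcg, Ak7 and Drc7 were on the cilia lists. Ak7, an adenylate kinase of cilia, had 1.66, 1.41, 0.325 and 2.06 FPKM in KO and 0.139, 0.988, 1.43 and 1.45 FPKM in WT, low in the same 2 libraries as Ccdc153. Without KO library 3 and WT library 1, r over the other 6 libraries lay between 0.59 for Ak7 and 0.99 for Wdr66, and the likeness of Ak7 and others rests in part on the 2 libraries left out. Among the 100 genes of highest r, 7 were on the cilia lists, 7%, against 0.352% of the 15054 genes ranked. The 7 tested genes and the lists were chosen with earlier results of these data known, so this share was not a test. These correlations are descriptions, over 8 libraries in which genes share the depth and the piece of tissue. The 10 genes had log2 fold changes between 0.01 and 0.24.

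**Figure D5:**
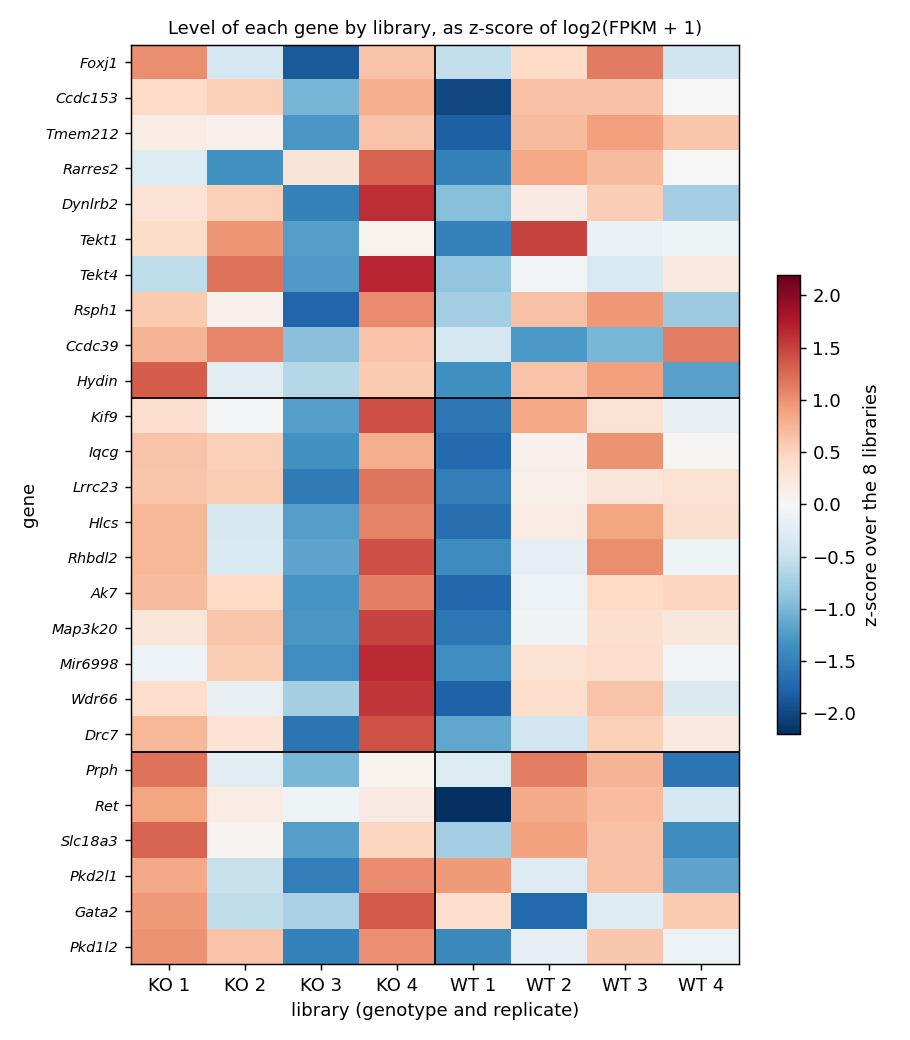
Level of each gene (rows) in each library (columns, knock-out 1 to 4 and then wild type 1 to 4), as z-score of log2(FPKM + 1) over the 8 libraries, with the 10 cilia genes at the top, the 10 genes of most similar pattern in the middle, and motor neuron and canal-contacting neuron markers at the bottom. The columns of knock-out 3 and wild type 1 are blue through most of the top and middle blocks, with Ccdc39 and Rarres2 as the rows that depart most, and Pkd2l1 is red in wild type 1.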

How the data were processed

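Per the labels' protocols, RNA was extracted with TRIzol and a NEBNext Ultra kit made the libraries. The tools named are HISAT2, SAMtools and Cufflinks, per the submitters' processing notes, with neither versions nor strand settings. What the authors deposited is FPKM (fragments scaled by transcript length and mapped fragments), per the file headers. The notes list build mm8, but the loci of 45128 genes (91.5% of those with a symbol) equal GRCm38 (GENCODE M21), so coordinates are GRCm38, from 1.

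limma 3.58.1 in R 4.3.3 (trend, robust, two-sided) compared log2(FPKM + 1) over the 15061 genes whose mean over 8 libraries reached 1 FPKM, with Benjamini-Hochberg adjustment; fold changes on this scale understate low genes. FPKM are not counts, so no count model was run. Depth was estimated from steps of 1 fragment in genes of at least 3000 nt, assuming 200-nt fragments (97.7% to 98.5% of values within 0.15 of a whole number).

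Named genes were the 10 members, the 3 most abundant of each other list with any past the threshold, Dynlrb1, and the 10 most similar in pattern. Ccdc40, Otx2 and the overlapping genes were named after their values were seen; 1 gene the rule takes is not reported here by itself. Members and lists were chosen with earlier results of these data known. The fit was tested on simulated data. Replicate numbers were not used to pair samples: same-numbered libraries did not deviate together (r between -0.11 and 0.14). Alternatives changed the pseudocount, filter, scaling, variance model, library weights, length trend, replicate block and libraries.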

Additional observations from a re-analysis of the deposited data

Results flagged for a closer look

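Tmem212 was listed at 0 FPKM in WT library 1, while the other 3 WT libraries stood between 1.40 and 1.67 FPKM. The gap from that library to the nearest of the others took 0.837 of the range of the 4, above Dixon's 95% critical value. In all, 20 groups were examined (10 genes in 2 genotypes), and chance alone flags about 1 in 20. The other markers low in this library, Ccdc153 among them, were not past that value.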

How the results depend on the processing

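The count of the 7 genes past the adjusted threshold was 0 in every alternative run except estimated library weights, which called 1 of them (Ccdc39) and 1627 of all genes, against 0 without weights. Leaving out 1 library at a time called 0 to 1 of all genes, the 1 without KO library 2, and 0 of the 7. The count of all genes at an unadjusted p under 0.05 ran between 325 without KO library 1 and 3151 without WT library 4, against 831 with all 8; it was 352, 1438 and 425 without KO libraries 2, 3 and 4, 1578 without KO library 3 and WT library 1, 1396 without a filter and 5014 with weights. The median log2 fold change of the genes tested stayed within the spread between libraries, between -0.19 and 0.34. That spread, an SD of 0.556 for the median level of single libraries within genotype, is wide, so staying within it is a weak check. The median of 0.34 came from a filter at a mean of 5 FPKM, which left only Foxj1, Ccdc153 and Ccdc39. The fit without a filter took in all 10 genes, at a median of 0.06. The sign of the median was not stable, nor were the signs of Foxj1, Ccdc153, Tmem212, Rarres2 and Rsph1. Dynlrb2 and Ccdc39 stayed positive in all alternatives run that tested them. With a pseudocount of 0.1, Ccdc153 was at 0.84 and Tmem212 at 0.12. The labels number the libraries 1 to 4 in each genotype without saying that a number pairs them. With the replicate number as a block, 0 genes were called, 0 of the 7 among them, 790 genes had unadjusted p under 0.05, and the median was -0.01. Depth limits Tmem212, with about 5 fragments in KO library 3 and 0 in WT library 1. For other low values, such as Ccdc153 in WT library 1 and Dynlrb2 in KO library 3, fragments were not estimated.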
